A study of Mus musculus with 12 samples.

Results

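The interferon regulatory factors (IRFs) were examined in cultured oligodendrocyte precursor cells (OPCs), the progenitors of the myelinating cells of the central nervous system. The members were 8 genes named by symbol (*Irf1*, *Irf2*, *Irf3*, *Irf4*, *Irf5*, *Irf7*, *Irf8* and *Irf9*), among 45563 symbols. They were chosen by name, with earlier results of these data known. All 8 averaged 0.1 FPKM or more (the deposited unit, fragments scaled by library total and a length per gene), as did 18081 genes, so all were tested. Primary OPCs were isolated from the cortices of pups (strain C57BL/6 and postnatal days 2 to 5 per the labels) of wild type (WT) or TNFR2-/- genotype, the latter a germline deletion of the receptor TNFR2, which affects all cells of the animal. After 3 days in culture they received PBS vehicle (NS, non-stimulated) or TNF, IFNγ and IL1β at 25 ng/mL each for 3 h (St, stimulated). RNA was sequenced in 12 libraries, 3 for each genotype with and without cytokines. WT libraries carry the culture numbers 2, 3 and 4 and TNFR2-/- libraries the numbers 2, 4 and 5, and values are given in that order. Nothing states whether each number is a separate animal or a pool, so p values measure the spread between these libraries.

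IRFs are transcription factors that share a DNA-binding domain and bind the GAAA repeats of interferon-stimulated response elements. IRF1 is an activator that IFNγ induces through gamma-activated sites (GAS), and IRF2 competes with IRF1 for the same elements. IRF9 is the DNA-binding part of the complex ISGF3, in which STAT2 is its partner and which carries the signal of type I interferon. IRF3, IRF5 and IRF7 lie latent in the cytoplasm until kinases downstream of pattern receptors phosphorylate them, and then drive interferon and cytokine genes. IRF4 and IRF8 are best known from lymphocytes, myeloid cells and, for IRF8, microglia, and bind DNA weakly unless joined to partners such as PU.1 or BATF.

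The sequence around the transcript start was read for each member from RefSeq (GRCm38.p6), as windows from 250 bases before to 50 bases after a start, and all 8 members had at least 1 window. Searched on both strands were the GAS letters TTCNNNGAA, the response element core GAAANNGAAA and the NF-kappaB motif, with overlaps allowed. The windows of *Irf1* (chr11:53769764-53770063, plus strand), *Irf8* (chr8:120736108-120736407, plus strand) and *Irf2* (chr8:46739495-46739794, plus strand) held matches, shown in capitals. That of *Irf3* (chr7:44997398-44997697, plus strand) is shown beside them as an example of a window without a match. It was picked because this member's level moved least with stimulation, so the windows shown do not compare members with and without a match.
Irf1: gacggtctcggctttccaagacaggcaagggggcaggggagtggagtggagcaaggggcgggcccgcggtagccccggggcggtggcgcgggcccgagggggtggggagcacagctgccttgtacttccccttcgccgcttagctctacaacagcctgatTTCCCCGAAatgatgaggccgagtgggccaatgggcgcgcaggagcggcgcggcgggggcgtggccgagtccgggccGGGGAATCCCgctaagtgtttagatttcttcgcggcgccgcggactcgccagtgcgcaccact
Irf8: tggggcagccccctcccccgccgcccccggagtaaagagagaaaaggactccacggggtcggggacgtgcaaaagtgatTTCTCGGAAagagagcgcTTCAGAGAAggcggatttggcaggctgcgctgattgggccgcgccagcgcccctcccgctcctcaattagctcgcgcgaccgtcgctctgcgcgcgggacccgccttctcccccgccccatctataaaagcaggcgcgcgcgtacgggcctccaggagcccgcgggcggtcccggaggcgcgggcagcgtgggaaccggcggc
Irf2: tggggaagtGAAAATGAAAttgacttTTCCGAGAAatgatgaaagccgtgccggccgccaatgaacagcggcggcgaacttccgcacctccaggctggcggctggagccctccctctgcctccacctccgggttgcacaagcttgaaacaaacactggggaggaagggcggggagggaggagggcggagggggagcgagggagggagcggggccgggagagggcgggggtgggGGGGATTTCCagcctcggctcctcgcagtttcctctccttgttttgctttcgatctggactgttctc
Irf3: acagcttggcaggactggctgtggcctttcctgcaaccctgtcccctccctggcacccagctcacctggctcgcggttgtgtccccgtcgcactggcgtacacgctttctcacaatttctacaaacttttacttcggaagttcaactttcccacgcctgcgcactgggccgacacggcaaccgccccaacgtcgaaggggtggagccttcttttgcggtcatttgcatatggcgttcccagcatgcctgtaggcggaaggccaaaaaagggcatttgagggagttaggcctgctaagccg

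Positions are counted from the annotated start, with −1 the base before it. In *Irf1*, the GAS letters lie at −90 to −82 and the NF-kappaB letters at −13 to −4. In *Irf8*, GAS letters occur at −171 to −163 and again at −153 to −145. In *Irf2*, the response element core lies at −241 to −232, GAS letters at −224 to −216 and NF-kappaB letters at −17 to −8. No capitals were found in the windows of *Irf3*, *Irf4*, *Irf5*, *Irf7* and *Irf9*, or in the second windows of *Irf1*, *Irf8* and *Irf9*. GAS letters were thus in 3 of 8 members and in 9.55% of 27025 genes, NF-kappaB letters in 2 of 8 and 9.55%, and the response element core in 1 of 8 and 3.99%. Of all 32851 windows, 8.30%, 8.46% and 3.44% held them. Of the members without a match, *Irf5*, *Irf7* and *Irf9* rose with stimulation in WT (log2 fold changes 2.24, 2.39 and 2.98). *Irf3* and *Irf4*, also without a match, were not called there. The members with a match rose by 8.15 (*Irf8*), 7.28 (*Irf1*) and 1.79 (*Irf2*, whose window held all 3 kinds of letters). The capitals are matches of letters in a short window. Binding was not measured, and a relation of the letters to the rise was not tested.

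**Figure D1:**
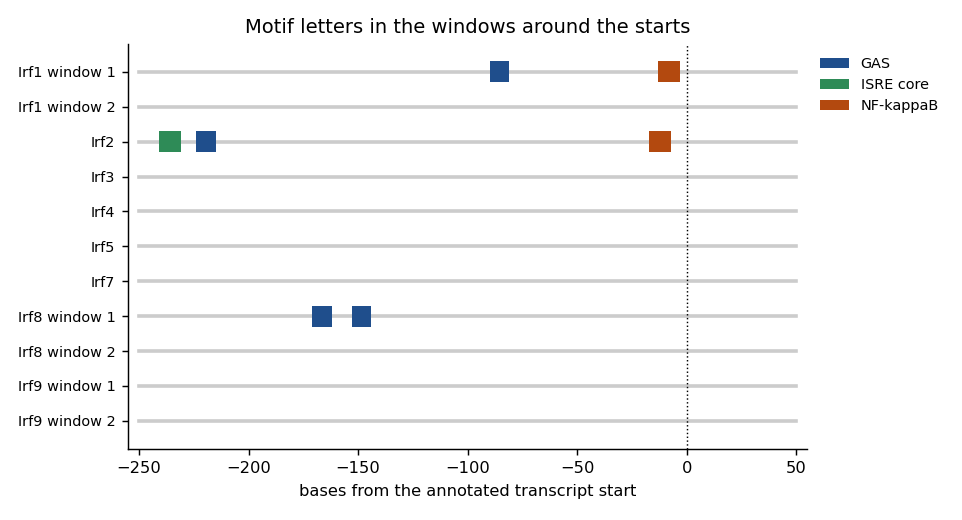
Positions of the searched letters in the windows of the 8 members, with the distance from the annotated transcript start in bases on the x axis and 1 grey line per window (11 in all). Matches (GAS blue, response element core green, NF-kappaB orange) are in 3 windows, those of *Irf1*, *Irf2* and *Irf8*.

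Library totals ranged from 26886878 to 30335265 read pairs. Reads per gene were recovered from the FPKM, and the number of bases the authors had divided each gene by was the same in all libraries but unrelated to its exons (98 bases for *Irf1*, 6190 for *Irf3*). FPKM are therefore compared between libraries for 1 gene, and levels of different genes are given as reads per library of 1000000 reads (RPM) and per kilobase of annotated exon. OPC markers (6 genes, *Pdgfra* and *Olig2* among them) summed to 2598 to 4178 RPM. Markers of microglia (10 genes) summed to 0.744 to 1.92 and those of other leukocytes (6 genes) to 0.0661 to 0.335. The targeted gene *Tnfrsf1b* did not follow its label: without cytokines, WT libraries held 12 to 24 of its reads and those labelled TNFR2-/- 213 to 346, and with cytokines 61 to 145 and 282 to 356. It was thus higher in the libraries labelled TNFR2-/- (log2 fold change 2.35 ± 0.21 SE in NS, adjusted p = 0.00134, and 1.28 ± 0.21 SE in St, adjusted p = 0.0160). Which exons these reads cover is not known from gene values, and every direction between genotypes below rests on the labels.

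Cytokine stimulation raised 6 of the 8 members in WT OPCs and the same 6 in OPCs labelled TNFR2-/-, and lowered none past the test. The 6 were *Irf1*, *Irf2*, *Irf5*, *Irf7*, *Irf8* and *Irf9*. A gene was called when its Benjamini-Hochberg adjusted p over all genes was at most 0.05, its change at least 1.5-fold and its mean at least 1 FPKM (limma on log2(FPKM + 0.5)). Of all genes tested, 4.58% were called upward in WT (7.53% in either direction) and 5.41% in TNFR2-/- (10.1% in either direction). The median log2 fold change of the members was 2.32 in WT and 2.73 in TNFR2-/-, against −0.05 and −0.11 over all genes.

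*Irf1* lies on chromosome 11 of GRCm38 (53770014 to 53778374, plus strand). Its level was 92.1, 61.5 and 77.6 FPKM in WT NS and 11444, 12313 and 12002 FPKM in WT St. In libraries labelled TNFR2-/- it was 132, 109 and 121 FPKM without and 11930, 12174 and 13405 FPKM with cytokines. Every stimulated library was thus far above every unstimulated one, and the stimulated libraries of the genotypes overlapped. The mean was 155-fold higher in WT St than in WT NS (log2 fold change 7.28 ± 0.13 SE, adjusted p = 1.25e-10). In TNFR2-/- it was 104-fold higher (6.69 ± 0.13 SE, adjusted p = 3.01e-10). *Irf1* shares 135 exon bases (3.40%) with *Gm17334* on the opposite strand, which had 173 to 235 reads in stimulated libraries, where *Irf1* had 33742 to 37706. By reads, *Irf1* moved from rank 10132 to rank 43 of 29325 symbols in WT and from 9437 to 46 in TNFR2-/-.

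*Irf2*, the competitor of IRF1 on the same elements, rose far less. It lies on chromosome 8 (46739732 to 46847458, plus strand). WT NS libraries had 96.2, 111 and 108 FPKM and WT St libraries 337, 402 and 355 FPKM. TNFR2-/- libraries had 80.3, 101 and 80.1 FPKM without and 293, 311 and 316 FPKM with cytokines. The unstimulated and stimulated groups did not overlap, with a mean 3.46-fold higher in WT St (1.79 ± 0.10 SE, adjusted p = 6.16e-07) and 3.52-fold higher in TNFR2-/- St (1.82 ± 0.10 SE, adjusted p = 4.91e-07). The spread of *Irf2* between cultures was small: its log2 difference between St and NS libraries of a culture was 1.61 to 1.98 over the 6 cultures.

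*Irf9*, the DNA-binding part of ISGF3, lies on chromosome 14 (55603571 to 55610030, plus strand). It stood at 4.18, 4.05 and 4.08 FPKM in WT NS and at 34.5, 37.6 and 35.6 FPKM in WT St. In TNFR2-/- it stood at 4.91, 4.09 and 6.49 FPKM without and 35.3, 33.8 and 39.8 FPKM with cytokines. These stimulated values of both genotypes overlapped, and each was above all unstimulated ones. The mean rose 8.75-fold in WT (2.98 ± 0.13 SE, adjusted p = 9.60e-08) and 7.02-fold in TNFR2-/- (2.72 ± 0.13 SE, adjusted p = 1.60e-07). *Irf9* shares 123 exon bases (2.28%) with *Rnf31* on the same strand, which also rose (1.68 in WT).

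*Irf8* had the largest rise of the 8. It lies on chromosome 8 (120736358 to 120756694, plus strand). WT NS libraries held 19 to 22 reads (0.48, 0.59 and 0.45 FPKM) and WT St libraries 11164 to 12405 (265, 296 and 293 FPKM). TNFR2-/- NS libraries held 33 to 54 reads (0.784, 1.28 and 0.943 FPKM) and TNFR2-/- St libraries 12794 to 16384 (316, 303 and 408 FPKM). The mean was 564-fold higher in WT St (8.15 ± 0.14 SE, adjusted p = 1.25e-10) and 342-fold higher in TNFR2-/- St (7.83 ± 0.14 SE, adjusted p = 2.19e-10). The WT NS level is close to the 0.5 FPKM added before the logarithm, and the WT log2 fold change ranged from 7.57 with 1 FPKM added to 9.12 with voom on the recovered reads. By reads, *Irf8* moved from rank 13833 to 341 in WT and from 12815 to 235 in TNFR2-/-.

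Since *Irf8* marks microglia and other myeloid cells, their markers were read in the same libraries. Summed over 10 microglial genes, RPM were 0.744 to 1.80 in WT NS, 0.897 to 1.65 in TNFR2-/- NS, 1.10 to 1.73 in WT St and 0.999 to 1.92 in TNFR2-/- St, so the stimulated libraries lay in or near the range of the unstimulated ones. *Fcrls* was at 0 in all 12 libraries and *Tyrobp* at 0 in 3 of the 4 groups, with at most 1 read in WT NS. *P2ry12* had the most reads of the list, 16 to 46 in a library. *Csf1r*, *Cx3cr1* and *Tmem119* had at most 9 reads in any library. *Itgam* had 0 reads in WT NS, 0 to 2 in TNFR2-/- NS and 3 to 4 in each stimulated library. *Spi1*, which encodes PU.1, the partner of IRF8 in myeloid cells, had at most 2 reads in any library. *Ptprc* (CD45), carried by all leukocytes, had at most 2 reads. In bulk RNA, more cells of a type and more RNA per cell cannot be told apart. Over the same stimulation, OPC markers summed to 3641 to 4165 RPM in WT NS and 2673 to 3019 in WT St. The list was not uniform in WT: *Olig2* (−1.23) and *Cspg4* (−0.66) were called lower and *Sox10* (0.61 ± 0.17 SE, adjusted p = 0.0375) higher, and the rest were not called. The sum of 5 neuronal markers was 106 to 118 in WT NS and 429 to 458 in WT St, where 1 of the 5 rose, *Tubb3* (3.06 ± 0.18 SE, adjusted p = 9.65e-07), and *Snap25* fell by 0.97 on the log2 scale. The part of these shifts in the IRF values was not tested.

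The other member of the lymphoid and myeloid pair, *Irf4* (chromosome 13, 30749226 to 30766976, plus strand), was low in all groups. Its reads numbered 12 to 14 in each WT NS library (0.240, 0.268 and 0.206 FPKM) and 21 to 34 in WT St (0.548, 0.360 and 0.582 FPKM). TNFR2-/- libraries had 4 to 12 reads without cytokines (0.0685, 0.119 and 0.204 FPKM) and 42 to 77 with them (1.32, 0.766 and 0.754 FPKM). The stimulated libraries lay above the unstimulated ones in both genotypes. In TNFR2-/- the difference passed the test (1.18 ± 0.16 SE, adjusted p = 3.49e-04) but not the level of 1 FPKM, and in WT it did not pass (0.43 ± 0.16 SE, adjusted p = 0.103). At this depth, the size in TNFR2-/- ranged from 0.77 to 2.85 over 22 alternatives.

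Among the 3 latent factors, *Irf5* and *Irf7* rose and *Irf3* did not. *Irf7* (chromosome 7, 141262706 to 141266481, minus strand), the factor that amplifies type I interferon, had 13 to 22 reads in unstimulated libraries. Its level was 1.23, 1.29 and 1.81 FPKM in WT NS and 10.2, 7.90 and 11.1 FPKM in WT St. In TNFR2-/- it was 1.56, 1.22 and 1.06 FPKM without and 17.0, 13.8 and 24.7 FPKM with cytokines. The groups did not overlap, and the mean rose 6.73-fold in WT (2.39 ± 0.21 SE, adjusted p = 2.31e-05) and 14.5-fold in TNFR2-/- (3.39 ± 0.21 SE, adjusted p = 1.26e-06). *Irf7* shares 45 exon bases (1.19%) with *Phrf1* on the opposite strand, which had 2342 to 2974 reads and changed by 0.02 in WT and 0.17 in TNFR2-/-, without being called.

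*Irf5* (chromosome 6, 29526625 to 29541871, plus strand) was 0.60, 0.871 and 1.02 FPKM in WT NS and 6.53, 5.40 and 5.39 FPKM in WT St. In TNFR2-/- it was 1.98, 0.714 and 0.950 FPKM without and 9.84, 9.35 and 12.4 FPKM with cytokines. Stimulated libraries were again above all unstimulated ones, by 6.95-fold in the mean of WT (2.24 ± 0.24 SE, adjusted p = 8.85e-05) and 8.67-fold in TNFR2-/- (2.74 ± 0.24 SE, adjusted p = 1.45e-05). These values rest on 10 to 33 reads in unstimulated and 90 to 197 in stimulated libraries. *Irf5* shares 411 exon bases (14.1%) with *Tnpo3* on the opposite strand, and whether reads were counted by strand is not given in the sources used here. *Tnpo3* itself had 2141 to 2444 reads and was not called in any comparison, with log2 fold changes with stimulation of −0.07 in WT and 0.03 in TNFR2-/-.

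*Irf3* (chromosome 7, 44997648 to 45002848, plus strand), the factor that initiates interferon β transcription, stayed near its starting level. It was 3.21, 3.13 and 3.35 FPKM in WT NS and 2.99, 2.76 and 2.82 FPKM in WT St. In TNFR2-/- it was 4.46, 3.85 and 5.09 FPKM without and 3.78, 3.07 and 3.89 FPKM with cytokines. The WT groups did not overlap, but the difference was small (−0.15, 95% confidence interval −0.41 to 0.10, adjusted p = 0.462), and in TNFR2-/- it was −0.28 (−0.54 to −0.03, adjusted p = 0.0989). These values do not use the pairing of NS and St libraries by culture. With a block per culture (limma), the adjusted p was 0.136 in WT and 0.0138 in TNFR2-/-, where the difference stayed under the fold threshold. Stimulated minus unstimulated was negative in 6 of 6 cultures, between −0.35 and −0.09. In 37.7% of all genes in WT and 37.3% in TNFR2-/- the NS and St libraries did not overlap. Among the members this held for 8 of 8 in WT (7 higher, 1 lower with stimulation) and 7 of 8 in TNFR2-/- (all higher).

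**Figure D2:**
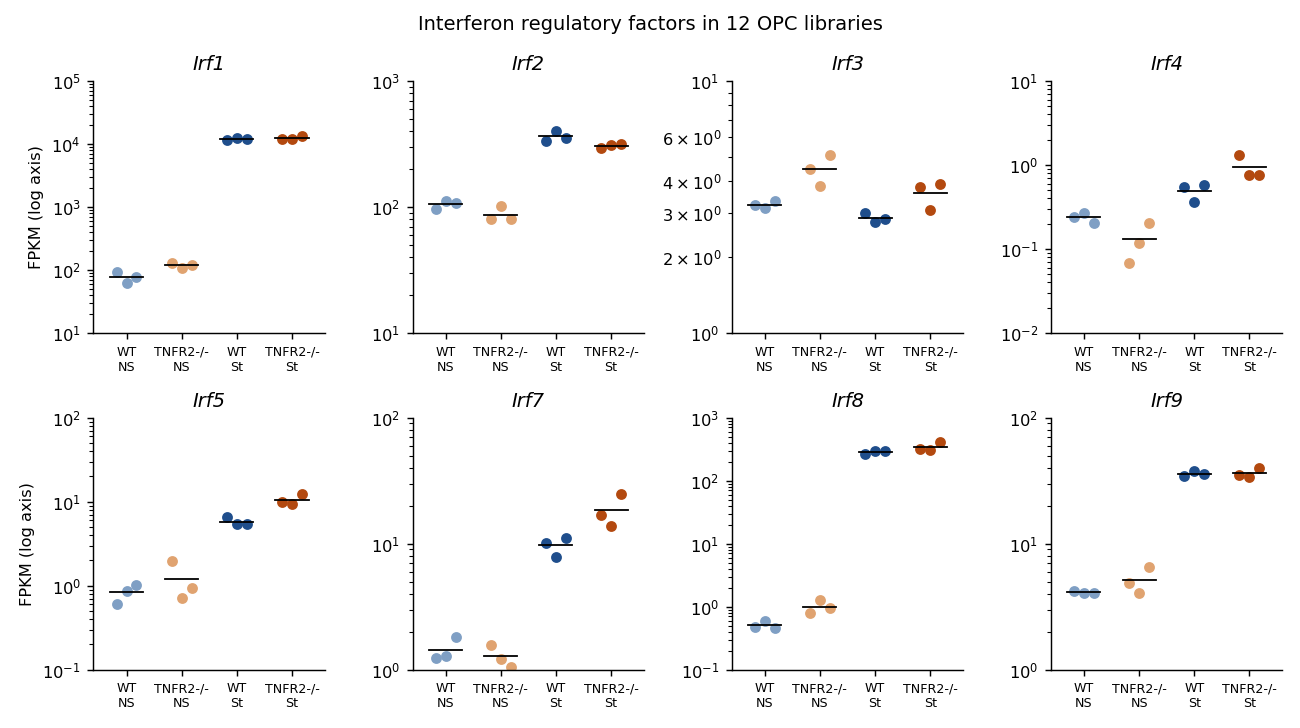
FPKM of each member in the 12 libraries (log axis, its range set for each gene), with 1 point per library and the group mean as a black line. All stimulated libraries lie above all unstimulated ones for 7 members, and *Irf3* stays between 2.76 and 5.09 FPKM.

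The make-up of the family was compared per kilobase of exon. In WT NS, *Irf3* was the highest member at 5.81 ± 0.20 RPM per kilobase (SD, n = 3), followed by *Irf2* at 3.81 ± 0.29, *Irf1* at 1.90 ± 0.38 and *Irf9* at 1.83 ± 0.03. The last 2 overlapped in their libraries. *Irf5*, *Irf7*, *Irf8* and *Irf4* lay between 0.0943 and 0.159, and the libraries of the first pair overlapped, as did those of *Irf8* and *Irf4*. After stimulation the order in WT was *Irf1* at 294 ± 11, *Irf8* at 56.4 ± 3.3, *Irf9* at 16.0 ± 0.7, *Irf2* at 13.2 ± 1.2 and *Irf3* at 5.14 ± 0.21. *Irf5* (1.10 ± 0.12) and *Irf7* (1.04 ± 0.18) overlapped, and *Irf4* was at 0.197 ± 0.047. *Irf3* thus went from 41.9% to 1.33% of the family sum in WT and from 47.0% to 1.55% in TNFR2-/-, and *Irf1* from 13.7% to 75.9% and from 17.4% to 74.4%. *Irf8* reached 14.6% in WT St and 16.4% in TNFR2-/- St. With the longest coding transcript as length, *Irf2* came before *Irf3* in WT NS and before *Irf9* in both St groups. The 8 members together had 66.7 to 69.5 RPM in WT NS, and 1693 to 1842 once WT cultures had been stimulated. In libraries labelled TNFR2-/- they were 74.4 to 83.0 and 1811 to 2107.

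**Figure D3:**
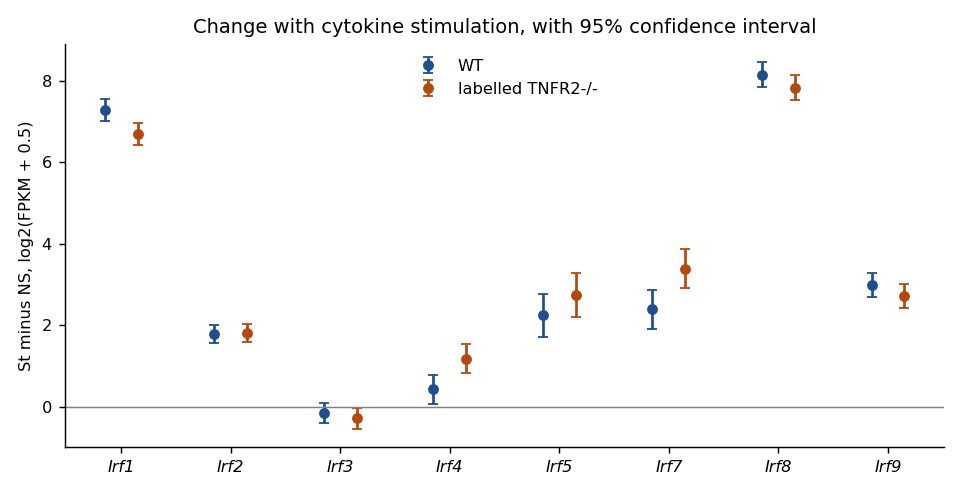
Difference between St and NS libraries on the log2(FPKM + 0.5) scale for each member, as the fitted value with its 95% confidence interval, in WT (blue) and in libraries labelled TNFR2-/- (orange). *Irf8* (8.15 and 7.83) and *Irf1* (7.28 and 6.69) stand far above the other members, and *Irf3* is near 0.

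Without cytokines, 1 of 8 members was called between libraries labelled TNFR2-/- and WT, against 2.9% of all genes. The members' median log2 difference, TNFR2-/- minus WT, was 0.29 without and 0.26 with cytokines, against 0.038 and −0.0034 over all genes. The member called without cytokines was *Irf1*, whose TNFR2-/- NS libraries (109 to 132 FPKM) lay above the WT NS libraries (61.5 to 92.1 FPKM), by 1.56-fold in the mean (0.66 ± 0.13 SE, adjusted p = 0.0188). The call was lost without WT NS replicate 3 (0.50, adjusted p = 0.0641), WT NS replicate 4 (0.67, adjusted p = 0.0640), TNFR2-/- NS replicate 2 (0.59, adjusted p = 0.0527) or TNFR2-/- NS replicate 5 (0.65, adjusted p = 0.0587), and over its 23 alternatives the adjusted p ran from 0.0120 to 0.0936. *Irf8* was also higher in each TNFR2-/- NS library than in each WT NS library (0.57 ± 0.14 SE, adjusted p = 0.0311), at 33 to 54 against 19 to 22 reads. Its mean was 1.98-fold higher. With 0.1 FPKM added before the logarithm, the difference was 0.85 (adjusted p = 0.0189) and *Irf8* was called. With the 0.5 FPKM of the main test, which is close to its WT NS level, it lay just under the fold threshold. *Irf3* differed by 0.40 ± 0.11 SE (adjusted p = 0.0491), also under that threshold. The libraries of the genotypes did not overlap for 4 members, 3 higher (*Irf1*, *Irf3*, *Irf8*) and 1 lower (*Irf4*) in TNFR2-/-, and for 34.2% of all genes. For *Irf4* the nearest libraries, WT NS replicate 4 and TNFR2-/- NS replicate 5, held 12 reads each (0.206 and 0.204 FPKM) and differed only in library total. *Irf2* (−0.28, adjusted p = 0.101), *Irf4* (−0.23, adjusted p = 0.359), *Irf5* (0.31, adjusted p = 0.422), *Irf7* (−0.12, adjusted p = 0.742) and *Irf9* (0.28, adjusted p = 0.188) did not pass.

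With cytokines, 1 of 8 was called, against 1.8% of all genes. This was *Irf7*, at 13.8 to 24.7 FPKM in TNFR2-/- St and 7.90 to 11.1 FPKM in WT St, 1.90-fold higher in the mean (0.87 ± 0.21 SE, adjusted p = 0.0458). The value stood close to the threshold and the call was lost under 14 of 23 alternatives, with an adjusted p of 0.0307 to 0.160 over all of them. Without TNFR2-/- St replicate 5, the library with the highest *Irf7*, the difference was 0.64 (adjusted p = 0.128), and without WT St replicate 3, the lowest, it was 0.73 (adjusted p = 0.160). *Irf5* was 1.82-fold higher in TNFR2-/- St (0.81 ± 0.24 SE, adjusted p = 0.0702) and *Irf4* 1.91-fold (0.52 ± 0.16 SE, adjusted p = 0.0748), without passing. *Irf3* (0.28, adjusted p = 0.160), *Irf8* (0.25, adjusted p = 0.264) and *Irf2* (−0.25, adjusted p = 0.158) did not pass either, nor did *Irf1* (0.07, 95% confidence interval −0.21 to 0.35) or *Irf9* (0.01, −0.28 to 0.30). TNFR2-/- St and WT St libraries did not overlap for 6 members, 5 higher (*Irf3*, *Irf4*, *Irf5*, *Irf7*, *Irf8*) and 1 lower (*Irf2*), and for 32.7% of all genes.

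**Figure D4:**
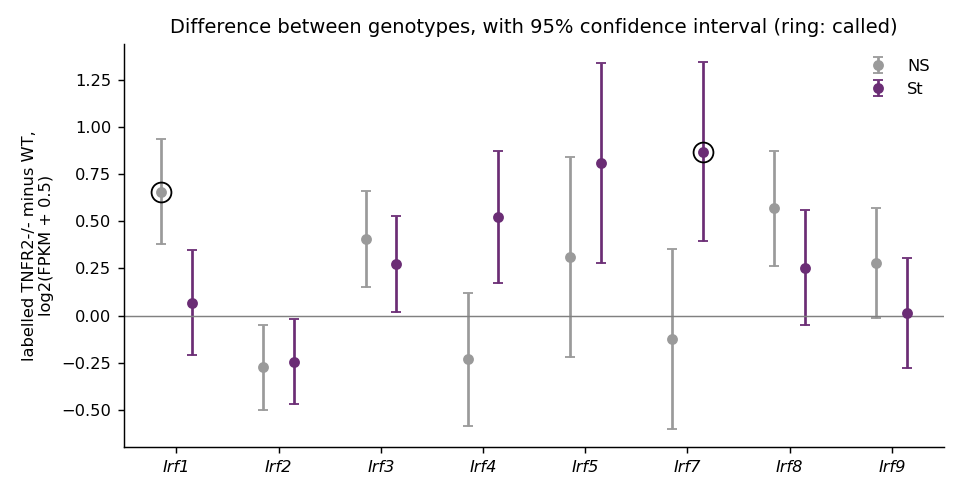
Difference between libraries labelled TNFR2-/- and WT on the log2(FPKM + 0.5) scale, without (grey) and with cytokines (purple), as the fitted value with its 95% confidence interval; a ring marks the members called. The 2 rings are *Irf1* without (0.66) and *Irf7* with cytokines (0.87).

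Of 34 marker genes tested, 2 were called between genotypes, both with cytokines, where 1.8% of all genes were called. The first was the OPC marker *Pdgfra*, the receptor for platelet-derived growth factor, which was lower in libraries labelled TNFR2-/- (−0.60 ± 0.15 SE, adjusted p = 0.0488, and −0.39, adjusted p = 0.122, without cytokines). OPC markers summed to 3569 to 4178 RPM in TNFR2-/- NS and 2598 to 2843 in TNFR2-/- St, ranges that overlapped those of WT. The second was the astrocyte marker *Slc1a2*, which was higher there (1.01). Without cytokines, astrocyte markers (6 genes, none at 0) summed to 710 to 825 RPM in WT libraries and 1058 to 2259 in those labelled TNFR2-/-. With cytokines the sums were 699 to 782 and 1151 to 2230. The highest sums, 2259 and 2230, were in culture 5. Among stimulated libraries, that culture also had the highest *Irf1*, *Irf3*, *Irf5*, *Irf7*, *Irf8* and *Irf9*, but not the highest *Irf2* or *Irf4*. Among unstimulated libraries, it had the highest *Irf3* and *Irf9* only, and the lowest *Irf7*. Markers of mural cells and fibroblasts (6 genes) summed to 254 to 870 in WT NS, 106 to 541 in TNFR2-/- NS, 323 to 790 in WT St and 74.8 to 467 in TNFR2-/- St. Their part in the genotype differences was not tested.

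Whether stimulation acted differently by genotype was tested as an interaction, and no member passed (limma). An adjusted p of at most 0.05 was reached by 0 of 8 members, and over all genes 0.00553% were called. Unadjusted p was under 0.05 for 3 members. The share of all genes at that unadjusted level was not computed, so this count cannot be read as an excess. The 3 were *Irf1* (−0.59 ± 0.18 SE, a smaller rise in TNFR2-/-, adjusted p = 0.502), *Irf4* (0.76 ± 0.22 SE, adjusted p = 0.502) and *Irf7* (0.99 ± 0.30 SE, adjusted p = 0.510). For *Irf7* the difference between St and NS within a culture was 2.23 to 2.62 in the 3 WT and 3.05 to 4.01 in the 3 TNFR2-/- cultures. For *Irf1* it was 6.95 to 7.63 and 6.50 to 6.80. For *Irf4* it was 0.16 to 0.62 and 0.83 to 1.68. The 3 WT and 3 TNFR2-/- cultures did not overlap in this difference for 4 of 8 members (*Irf4* and *Irf7* higher and *Irf1* and *Irf9* lower in TNFR2-/-), and for 28.1% of all genes. *Irf3* (−0.13, adjusted p = 0.915), *Irf5* (0.50, adjusted p = 0.767) and *Irf8* (−0.31, adjusted p = 0.750) did not pass. For *Irf2* (0.03, 95% confidence interval −0.29 to 0.35) and *Irf9* (−0.27, −0.68 to 0.15) the interaction was close to 0 or uncertain in sign.

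The genes around the IRFs were read from lists. Beside the counts that follow, 4.58% of all genes were called upward with stimulation in WT and 5.41% in TNFR2-/-. Upstream, 4 of 7 interferon receptors and receptor kinases rose in both genotypes. *Ifngr2*, the signalling chain of the IFNγ receptor, rose by 1.18 ± 0.07 SE in WT (adjusted p = 9.65e-07) and 1.08 in TNFR2-/-, *Ifnar2* by 1.40 and 1.11, *Jak1* by 1.21 and 1.13 and *Jak2* by 1.38 and 1.67. *Ifngr1*, *Ifnar1* and *Tyk2* were not called. *Stat2*, whose product partners IRF9, rose by 3.63 ± 0.11 SE in WT (adjusted p = 7.43e-09) and 3.51 in TNFR2-/-.

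Of 10 kinases and adaptors that activate IRF3, IRF5 and IRF7, 3 rose in both genotypes. *Myd88*, the adaptor of most Toll-like receptors, rose by 2.42 ± 0.27 SE in WT (adjusted p = 1.41e-04) and 2.57 in TNFR2-/-. *Tmem173*, which encodes STING, rose by 1.40 and 1.30, and the IRF3 kinase *Tbk1* by 0.66 and 0.79. The other 7, among them *Mavs* (−0.30 and −0.40) and *Traf3* (−0.37 and −0.52), were not called. None of the 8 interferon genes listed reached the level for testing. *Ifnb1* had 0 reads in all unstimulated libraries, 5 to 9 in WT St and 7 to 13 in TNFR2-/- St, and *Ifng* had 0 reads in all 12.

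Downstream, 8 of 9 textbook IRF1 targets rose in WT and 9 of 9 in TNFR2-/-. *Tap1*, the peptide transporter of antigen presentation, rose by 5.45 ± 0.18 SE in WT (adjusted p = 1.07e-08) and 5.28 in TNFR2-/-. *Nlrc5*, the transactivator of MHC class I, rose by 8.24 and 7.29. The exception in WT was *Il15* (0.99 ± 0.31 SE, adjusted p = 0.0536). Of 10 ISGF3 and IRF7 targets, 7 were called upward in WT and 8 in TNFR2-/-, with *Irgm1* at 8.03 and 7.01 and *Oasl2*, of the oligoadenylate synthetase family, at 4.01 and 4.77. *Mx1* also rose in WT (1.57, adjusted p = 0.00397) and TNFR2-/- (2.12, adjusted p = 4.07e-04), and *Oas1a* in TNFR2-/- (1.83, adjusted p = 0.00346). These were not called because their means lay under 1 FPKM. Feedback genes rose too: 4 of 5 negative regulators were called in both genotypes, among them *Socs1* (5.69 ± 0.16 SE in WT, adjusted p = 5.30e-09, and 6.26 in TNFR2-/-) and *Socs3* (4.32 and 4.34). *Ptpn6* was not called.

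Among the partners, *Irf2bp2*, which encodes a corepressor that binds IRF2, fell while *Irf2* rose (−0.81 ± 0.19 SE in WT, adjusted p = 0.0173, and −1.03 in TNFR2-/-). *Irf2bp1* and *Irf2bpl* were not called. Of 4 partners of IRF4 and IRF8, 1 was high enough to be tested, *Batf3*, and it rose by 1.98 ± 0.09 SE in WT (adjusted p = 1.59e-07) and 2.07 in TNFR2-/-. *Batf* had at most 3 reads in any library. *Spib* was too low to be tested, but had 0 to 2 reads in unstimulated libraries, 9 to 37 in WT St and 10 to 17 in TNFR2-/- St. The median log2 fold changes in WT were 1.18 for receptors and kinases, 0.23 for activators, 1.76 for negative regulators, −0.51 for IRF2-binding proteins, 3.61 for IRF1 targets and 2.10 for ISGF3 and IRF7 targets, beside −0.05 over all genes.

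**Figure D5:**
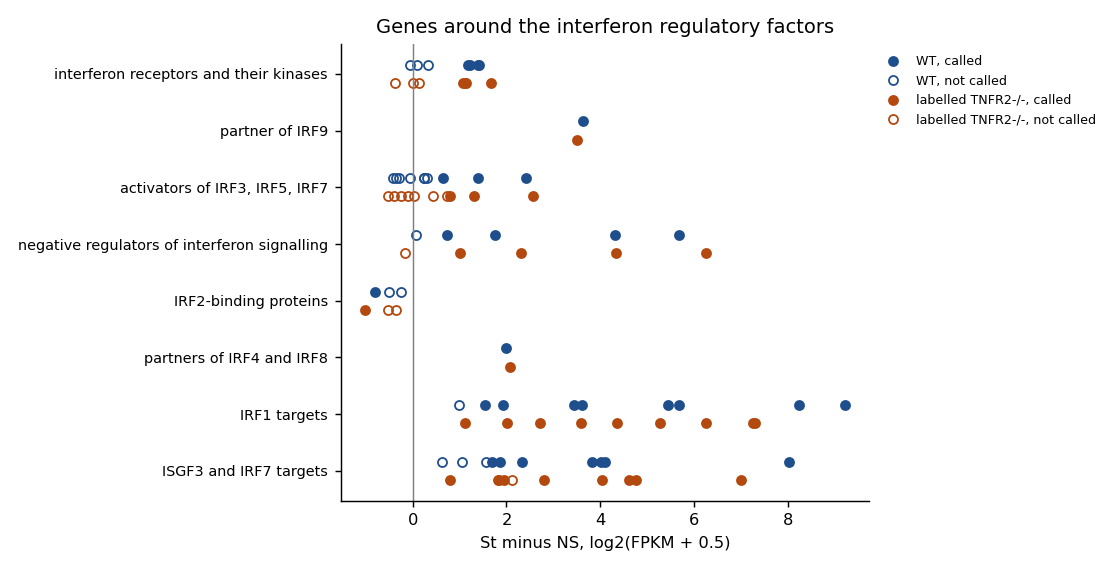
Difference between St and NS on the log2(FPKM + 0.5) scale for the tested genes of each list (1 point per gene; filled points were called, open points were not), in WT (blue) and in libraries labelled TNFR2-/- (orange). *Stat2* and nearly all IRF1 targets lie to the right, and IRF2-binding proteins lie to the left of 0.

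Between genotypes, 3 of the 45 tested genes of these lists were called without and 4 with cytokines, beside the 2.9% and 1.8% of all genes. Without cytokines, *Nlrc5* (0.85 ± 0.19 SE, adjusted p = 0.0242), *Irgm1* (1.02 ± 0.18 SE, adjusted p = 0.0156) and *Irak4* (0.63 ± 0.17 SE, adjusted p = 0.0467) were higher in libraries labelled TNFR2-/-. With cytokines, the IRF1 targets *Casp1* (1.06 ± 0.23 SE, adjusted p = 0.0319) and *Psmb9* (0.69 ± 0.17 SE, adjusted p = 0.0453) were higher there, and *Gbp2*, of a family of close paralogs between which reads can be split (−1.19 ± 0.26 SE, adjusted p = 0.0343) and *Irf2bp2* (−0.81 ± 0.19 SE, adjusted p = 0.0433) were lower. The remaining genes of the pathway lists were not called between genotypes.

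The genes whose levels followed each member most closely over the 12 libraries were found among the 13554 genes that averaged 1 FPKM or more, as a description. For *Irf8* these were *Cd274*, which encodes PD-L1 (Pearson r = 0.999), *Gm12185* and *Psmb8*, an immunoproteasome subunit. For *Irf1* they were *Psmb8* (r = 0.998), *Pacs1* and *Tap1*, for *Irf7* *Slfn5* (r = 0.997), *Nfkb1* and *H2-Q6*, and for *Irf9* *Gpr132* (r = 0.998), *Trappc11* and *Tapbpl*. *Irf5* was followed by *Slfn8* (r = 0.988), *Cdk6* and *Gadd45b*, and *Irf2* by *Dnah17* (r = 0.993), *Kars* and *Lrrtm2*. *Irf3* was followed by other genes, *Fam136a* (r = 0.988), *Ndufaf7* and *Cdk10*. The 12 points share 4 groups, so a gene that rises with stimulation has a high r with any member that does.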

How the data were processed

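RNA of primary OPC cultures was sequenced in 12 libraries. Per the processing notes and methods, the authors used Trim Galore for trimming, STAR for alignment (GRCm38) and counting, and edgeR for their own calls, and deposited FPKM per gene symbol in separate NS and St tables of 45792 entries each. The study's methods name a BGISeq platform where the labels name Illumina protocols. Of these, 229 entries under 99 repeated symbols were dropped, which left 45563. Whole reads were recovered from the deposited FPKM in all 12 libraries for 26636 of 26636 genes above 0 in at least 2 libraries, where whole means within 0.0002 of a read or, if larger, within 1e-06 of the count. A single divisor per gene held across both tables, so NS and St values share a scale.

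The main test was limma 3.58.1 (R 4.3.3) on log2(FPKM + 0.5), with a mean-dependent prior, over 12 libraries as 4 group means, where the mean reached 0.1 FPKM. The Benjamini-Hochberg adjustment ran over all 18081 genes, and calls needed an adjusted p up to 0.05, a change of 1.5-fold or more and an average level from 1 FPKM upward. The test was also run on simulated data, with the same fixed spread for all genes and changes set only above a floor of mean reads and 1 FPKM. That simulation does not cover genes with few reads, such as *Irf4*. With 3 libraries against 3, an exact permutation test of a single gene cannot go below 0.1. Exon lengths came from GENCODE M21, and starts and windows from RefSeq. Tables and figures were made in Python 3.11.15 with numpy 2.4.6, pandas 2.3.3 and matplotlib 3.10.9.

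All 8 members are named in every comparison, with genes of the pathway and marker lists (those called between genotypes, and examples with stimulation) and, for members with a mean of at least 1 FPKM, the 3 genes of highest correlation. The members and lists were chosen with earlier results of these data known. Listed genes with no value in the text enter its counts. One further gene was taken off the lists and is not reported here.

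Pairing by culture number was checked over 13554 genes. After removal of group means, NS and St libraries of the same genotype and number correlated at 0.34 to 0.65 (6 pairs), those of other numbers at −0.45 to 0.09 (12 pairs), and libraries of the same number but other genotype at −0.08 to 0.20 (8 pairs). The numbers therefore pair NS with St libraries of a culture, and do not pair genotypes. The main test did not use this pairing, so its p values for stimulation and the interaction treat NS and St libraries as unpaired. For those comparisons the replicate block has a term per culture and does use it.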

Additional observations from a re-analysis of the deposited data

How the results depend on the processing

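The counts of 6 members called with stimulation in each genotype and 0 in the interaction held under the alternatives run, except that adjusted p alone gave 7 in TNFR2-/-, with *Irf4* added. The others were pseudocounts, filters, scalings, the 6 libraries compared alone, no trend, a replicate block, voom on the recovered reads and each library left out. Of 907 values of single members under an alternative, 869 kept their direction and side of the threshold, 20 lost a call, 9 gained one and 9 changed sign.

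Calls between genotypes were unstable. Without cytokines, 1 member was called, against 2 with a pseudocount of 0.1, 0 with only the 6 libraries compared, 3 by adjusted p alone and 0 with the replicate block (*Irf1* 0.56, adjusted p = 0.0279, under the fold threshold), and 0 to 1 with a library left out. With cytokines, 1 was called, against 0 with a pseudocount of 0.1, 2 with a pseudocount of 1, 0 with no filter, 0 with only the 6 libraries compared, 0 with no trend, 0 with the replicate block and 2 with voom, and 0 to 2 with a library left out. In these comparisons between genotypes, the block joins libraries that share only a number. Without cytokines, the second member called with a pseudocount of 0.1 was *Irf8* (0.85, adjusted p = 0.0189). The second member gained with cytokines was *Irf5* (adjusted p = 0.0308 to 0.0486 under 4 alternatives).

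Signs changed for differences near 0. With the replicate block, *Irf1* with cytokines went from 0.07 to −0.025 and *Irf9* from 0.01 to −0.091. With a library left out, *Irf9* with cytokines ranged from −0.055 to 0.061, *Irf7* without cytokines from −0.23 to 0.0072 and the interaction of *Irf2* from −0.027 to 0.14. The causes were not tested. *Irf4* has no value with a filter at a mean of 1 FPKM. Depth limits *Irf4*, *Irf5*, *Irf7* and *Irf8* without cytokines, at 4 to 54 reads a library.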
